A study of Homo sapiens with 9 samples.

Results

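The transcriptome of control 786-O cells was described from 3 control libraries, taken by the negative control label from the 9 libraries of the series, which form 3 groups of 3. 786-O is an established line from a human clear cell renal carcinoma and is known for the loss of functional VHL, and the other groups of the series, in which TRIM28 or PARP1 was silenced, were not used. The labels give kidney as the tissue, epithelial cell as the cell type and wild type as the genotype, with no time and no further agent. They describe the control treatment as a negative control siRNA in one field, and as a negative control shRNA or as parental cells elsewhere, so which reagent these cells received, if any, is uncertain. Nothing in the labels says that the 3 libraries came from separate cultures, and the spread between them may be technical. Levels are FPKM, read fragments scaled to the exon length of the gene and to the size of the library, which can be compared between genes because they are set per length. The length is the sum of all annotated exon bases, so a gene with many isoforms reads low, and the level per longest annotated transcript is given beside named genes for which it lies on the other side of 1 FPKM. Values of a gene are given in the order of replicates 1, 2 and 3, followed in brackets by the mean ± SD (n = 3). A gene was called expressed at a mean of at least 1 FPKM, high at 100 FPKM or more, and near absent below 0.1 FPKM.

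VHL is the substrate receptor of a ubiquitin ligase that marks the alpha subunits of hypoxia-inducible factors (HIF) for destruction when oxygen lets the EGLN prolyl hydroxylases act. Without it the alpha subunits persist and, with ARNT, drive genes of glycolysis, angiogenesis, iron handling and lipid storage, which is the hallmark of clear cell renal carcinoma. HIF abundance is set mainly at the protein level, which messenger RNA does not measure. The tumour is thought to arise from the proximal tubule, the nephron segment that recovers solutes from the filtrate, whose transporters, junction proteins and enzymes identify it.

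Total counts were 18042542, 18268492 and 20224374, over 20095, 20116 and 20057 genes with at least 1 count. The libraries were not copies of one another, since a chi-square test of counts gave a statistic over its degrees of freedom of 4.70 for replicates 1 and 2, 22.6 for 1 and 3 and 16.3 for 2 and 3. All 3 carry the same batch label, but replicate 3 stood apart. Its ribosomal protein genes took 12.5% of counts against 10.9% and 11.4%, its mitochondrial genes took 0.865% against 1.18% and 1.04%, and the tenth of genes with the longest exon sum had a median log2 deviation of -0.17 against 0.12 and 0.06. Of 3621 genes with a mean of at least 10 FPKM, 173 differed by more than 1.5 times between their highest and lowest library, and 160 of these were lowest in replicate 3. The median ratio of highest to lowest library was 1.14.

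Of 19149 protein-coding genes, 8320 (43.4%) were expressed, 7496 (39.1%) were near absent and 447 (2.33%) were high, while 4673 (24.4%) had no counts in any library. The mitochondrial genes MT-CO2 and MT-CO3 encode proteins but are not among these 19149, so ranks of coding genes leave them out. Over all 61806 genes of the table, 9345 (15.1%) were expressed. The genes described here are 820 members of 33 functional lists and 54 families of related genes. Of them 373 (45.5%) were expressed, a share close to that of all protein-coding genes, and 303 were near absent, 58 were high and 147 had no counts. Without replicate 3, 375 of the members were expressed. The share expressed in each list or family below is to be read beside the 43.4% of all protein-coding genes.

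**Figure D1:**
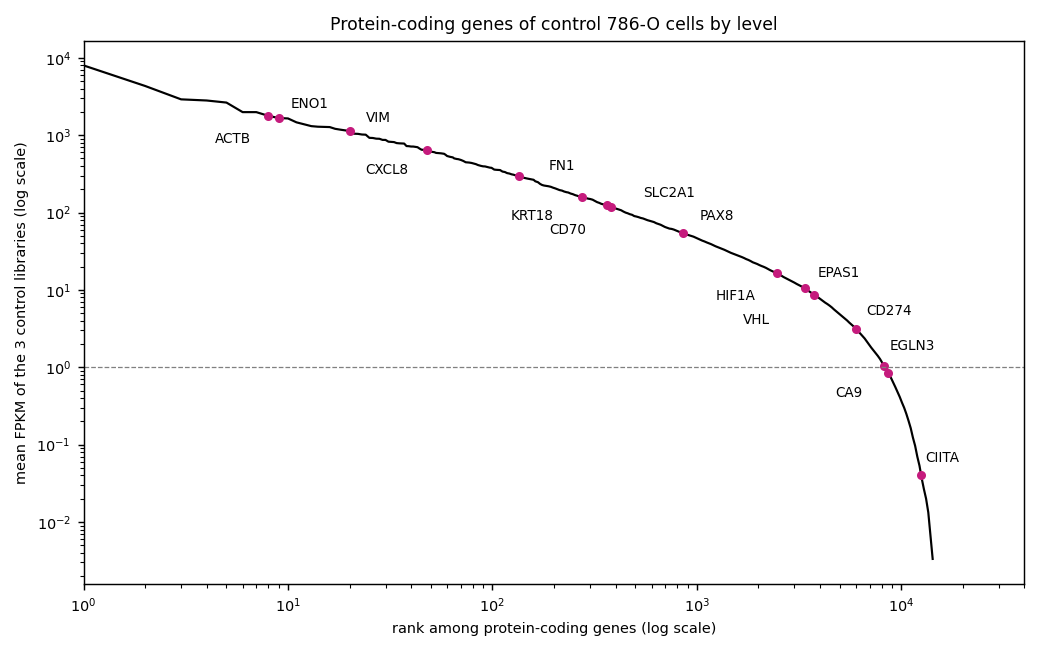
Mean FPKM of the 3 control libraries (log scale) against the rank of each protein-coding gene with a mean above 0 (log scale), with selected genes as points and the dashed line at 1 FPKM. The mitochondrial genes MT-CO2 and MT-CO3 are not among the ranked genes. ACTB lay at rank 8, VIM at rank 20 and PAX8 at 53.8 FPKM, while CA9 and EGLN3 lay close to the line and CIITA far under it.

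The most abundant named transcripts were those of the cytoskeleton, translation, glycolysis and iron storage. RN7SL1, the RNA of the signal recognition particle, led with 7068, 9054 and 9120.1 FPKM (8414 ± 1166), but all its annotated exon bases are shared with another gene of the same strand. The RNA was selected on oligo(dT) beads, so the level of this noncoding RNA may not compare with those of messenger RNAs. TMSB10, a thymosin that binds actin monomers, followed with 7479, 7982 and 8459 FPKM (7973 ± 490.1). GAPDH, the glycolytic dehydrogenase, took 1.04% of all counts and stood at 4325 ± 283 FPKM. LGALS1, a secreted galectin, stood at 2904 ± 211 FPKM and FTL, the ferritin light chain, at 2807 ± 266 FPKM. Ribosomal protein genes filled another 6 of the first 20 places (RPS2, RPL41, RPL8, RPS18, RPL7A and RPS12, from 1281 to 2638 FPKM). The pseudogene RPS2P5 was listed at 3615 FPKM, and its reads cannot be told apart from those of the near-identical RPS2 by these counts. ACTB, ENO1, ACTG1, S100A6, PFN1 and the mitochondrial genes MT-CO2, MT-RNR1 and MT-CO3 made up the rest.

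Among the HIF machinery 13 of 16 members (81.2%) were expressed, and both main alpha subunits were present as messenger RNA. HIF1A (chr14:61695513-61748259, plus strand, GRCh38) was measured at 18.9, 17.3 and 12.9 FPKM (16.4 ± 3.14). EPAS1 (chr2:46293667-46386697, plus strand), which encodes HIF-2 alpha, was measured at 11.6, 10.9 and 8.84 FPKM (10.4 ± 1.42). HIF1A was higher in each library, its lowest value lying above the highest of EPAS1, and took 60.9% ± 1.45 of the summed level of the 3 alpha subunit genes. Both were lowest in replicate 3. Whether these transcripts yield working alpha subunits was not measured, and their sequences were not analysed here. HIF3A, the third alpha subunit, had no counts, which allows at most 0.00634 FPKM, taking 3 counts over the 3 libraries as the limit of a count of 0.

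VHL itself (chr3:10141778-10153667, plus strand) was transcribed, at 8.73, 9.15 and 8.18 FPKM (8.69 ± 0.486), above 80.5% of protein-coding genes. A transcript level says nothing about whether the protein works, and the sequence of VHL was not analysed here. Of the other parts of its ligase, the RING subunit RBX1 stood at 59.4, 54.0 and 59.9 FPKM (57.8 ± 3.22), the adaptor ELOB at 30.4 ± 2.66 FPKM, its partner ELOC at 20.8 ± 2.19 FPKM and the scaffold CUL2 at 0.537 ± 0.15 FPKM. CUL2 was thus the one component under 1 FPKM. Set over its longest annotated transcript instead of all exon bases, CUL2 reached 1.80 FPKM.

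The prolyl hydroxylases, which mark HIF alpha for VHL, were all low and close together. EGLN1 was measured at 1.16, 1.55 and 0.89 FPKM (1.20 ± 0.332), EGLN3 at 1.08, 1.0 and 1.05 FPKM (1.04 ± 0.0404) and EGLN2 at 0.62, 0.78 and 0.8 FPKM (0.733 ± 0.0987). The libraries of EGLN1 and EGLN3 overlapped, so no order between them was resolved. Per longest transcript the order changed, with EGLN3 at 2.69 FPKM, EGLN2 at 1.71 FPKM and EGLN1 at 0.91 FPKM, and 30.6% of EGLN2's exon bases are shared with a neighbour on its strand. HIF1AN, the asparagine hydroxylase that blocks coactivator binding, was higher than all 3 at 11.4, 12.2 and 11.4 FPKM (11.7 ± 0.442). ARNT, the beta subunit, stood at 5.29 ± 0.84 FPKM, and the coactivators CREBBP and EP300 at 3.997 and 3.20 FPKM, with EP300 at 1.88 FPKM in replicate 3 against 4.07 and 3.64 FPKM.

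**Figure D2:**
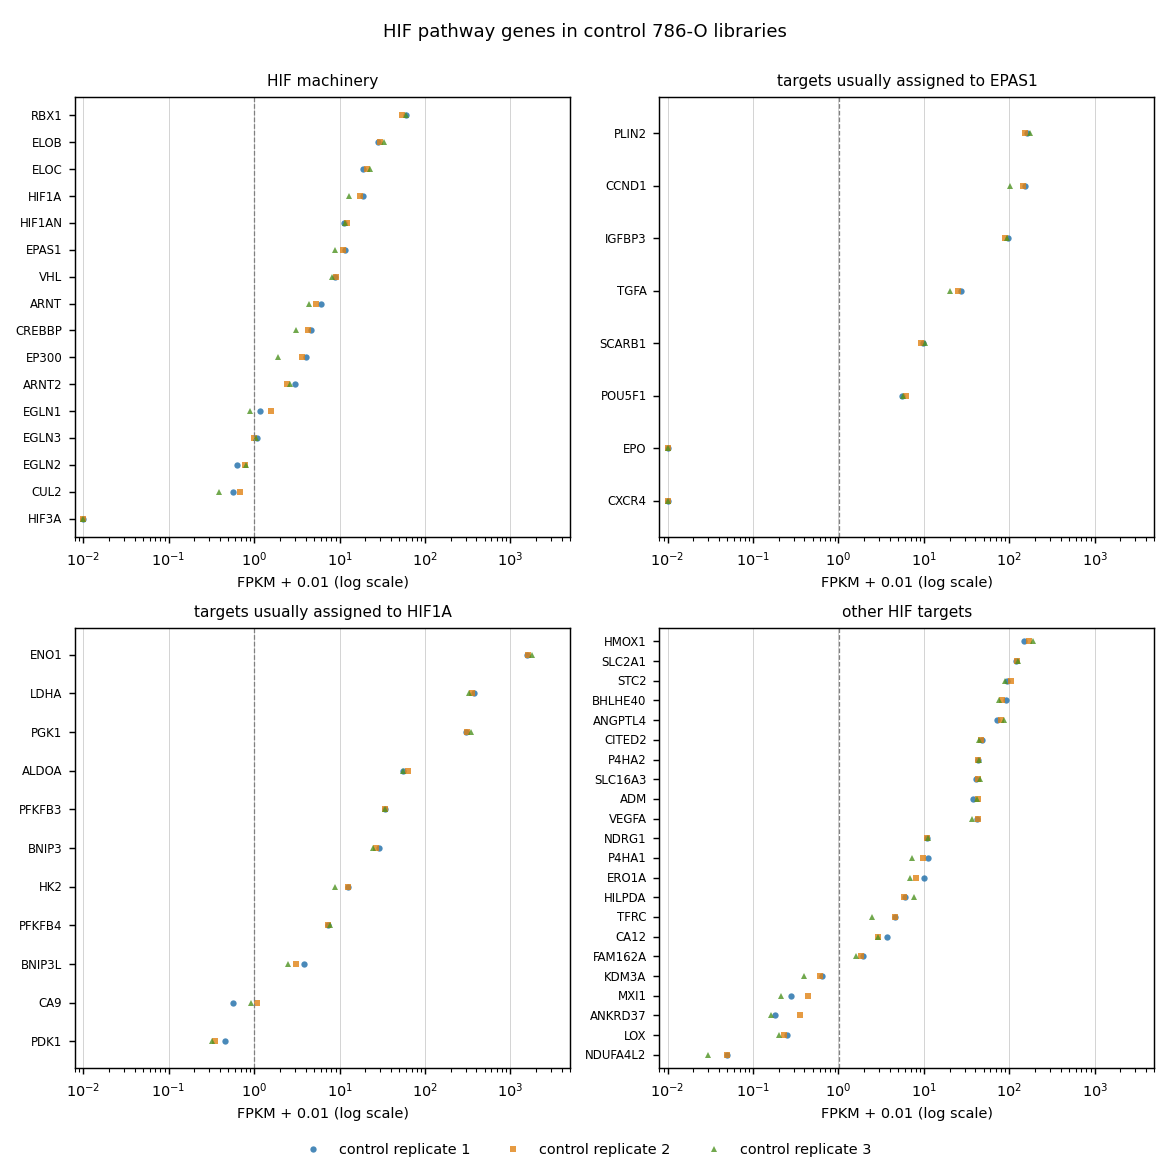
FPKM + 0.01 (log scale) of members of 4 HIF lists in control replicates 1, 2 and 3, with the dashed line at 1 FPKM. HIF targets spread from 1666 FPKM (ENO1) to no counts (EPO and CXCR4), and the points of a gene lie close together against that spread.

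The promoters of 4 HIF targets are printed to show where the core of the HIF response element lies in genes at very different levels. Each run is the 250 bases upstream of the RefSeq start in GRCh38.p14, read 5′ to 3′ on the gene's strand, and capitals mark ACGTG or GCGTG on either strand (CACGT or CACGC on the printed one), where overlapping matches run together. ENO1 and LDHA encode glycolytic enzymes, PLIN2 a lipid droplet coat and CA9 a membrane carbonic anhydrase.
ENO1 (chr1:8878687-8878936, minus strand): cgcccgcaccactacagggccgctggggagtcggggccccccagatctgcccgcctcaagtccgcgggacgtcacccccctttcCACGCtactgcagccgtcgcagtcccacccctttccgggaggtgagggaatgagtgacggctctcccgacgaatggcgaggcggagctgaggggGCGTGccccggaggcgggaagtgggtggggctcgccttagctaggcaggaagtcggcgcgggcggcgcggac
LDHA (chr11:18394313-18394562, plus strand): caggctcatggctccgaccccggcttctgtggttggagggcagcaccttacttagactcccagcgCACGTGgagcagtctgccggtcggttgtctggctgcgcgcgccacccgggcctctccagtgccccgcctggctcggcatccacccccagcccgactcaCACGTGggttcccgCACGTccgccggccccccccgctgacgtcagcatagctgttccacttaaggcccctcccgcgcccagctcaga
PLIN2 (chr9:19127493-19127742, minus strand): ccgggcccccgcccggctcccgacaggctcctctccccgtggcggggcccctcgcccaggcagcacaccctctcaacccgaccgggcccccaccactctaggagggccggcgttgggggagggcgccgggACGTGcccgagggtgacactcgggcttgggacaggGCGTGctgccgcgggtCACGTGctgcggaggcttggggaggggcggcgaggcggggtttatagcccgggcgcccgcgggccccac
CA9 (chr9:35673678-35673927, plus strand): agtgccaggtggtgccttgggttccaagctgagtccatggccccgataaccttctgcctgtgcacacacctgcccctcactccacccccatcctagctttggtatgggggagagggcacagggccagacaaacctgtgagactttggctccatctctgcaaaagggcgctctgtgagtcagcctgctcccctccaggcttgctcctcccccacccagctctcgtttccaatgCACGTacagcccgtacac
Counted from the start site, the matches began at -166 and -72 in ENO1, at -185, -184, -87, -86 and -73 in LDHA, at -120, -85, -69 and -68 in PLIN2, and at -18 in CA9. CA9 thus has 1 match close to its start and stood at 0.837 FPKM, while ENO1 has 2 and stood at 1666 FPKM. Of 42 HIF targets, 32 had a promoter in the RefSeq table and 25 of these (78.1%) held at least 1 match, against 43.2% of all 34961 promoters searched and 49.3% of the 22132 that belong to protein-coding genes, with chromosomes 8 and Y left out. Each target gave 1 promoter, whereas the shares of all promoters count every entry. The targets were listed as known HIF targets, so a higher share among them is no independent test of the motif. A match in so short a motif is a description of letters and not of binding. SLC2A1 and P4HA2 were expressed with no match in this window, and ANKRD37 and LOX stood under 1 FPKM with 3 and 4.

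Of 9 targets usually assigned to EPAS1, 7 (77.8%) were expressed, 3 of them at 100 FPKM or more. PLIN2, which coats lipid droplets, was measured at 161, 154 and 176 FPKM (164 ± 11.3). CCND1, the D cyclin long tied to VHL loss in renal carcinoma, was measured at 151, 145 and 102 FPKM (133 ± 26.7). PLIN2 was highest and CCND1 lowest in replicate 3. IGFBP3, which binds insulin-like growth factors, stood at 93.4 ± 4.10 FPKM, and TGFA, a ligand of EGFR, at 24.1 ± 3.42 FPKM. SCARB1, a lipoprotein receptor, and POU5F1, a pluripotency factor, stood at 9.76 and 5.83 FPKM. EPO, the erythropoietin gene, and CXCR4, a chemokine receptor, had no counts, with limits of 0.0319 FPKM and 0.0183 FPKM.

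Of 11 targets usually assigned to HIF1A, 9 (81.8%) were expressed, and they ran from 0.363 to 1666 FPKM. ENO1, the enolase, was measured at 1587, 1627 and 1784 FPKM (1666 ± 104). LDHA, which turns pyruvate into lactate, stood at 380.2, 354 and 331 FPKM (355 ± 24.5). PGK1, the phosphoglycerate kinase, stood at 299, 307 and 342 FPKM (316 ± 23.2). These are among the most abundant coding transcripts of the cells. BNIP3 and BNIP3L, receptors for the removal of mitochondria, stood at 27.1 ± 2.19 FPKM and 3.10 ± 0.671 FPKM. At the other end CA9, the surface antigen most used to recognise clear cell carcinoma, was measured at 0.55, 1.06 and 0.9 FPKM (0.837 ± 0.261) from 76 counts in all. PDK1, which shuts pyruvate out of mitochondria, was at 0.44, 0.34 and 0.31 FPKM (0.363 ± 0.0681). CA9 and PDK1 were the 2 members under 1 FPKM.

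The other 22 targets gave the same wide range, with 17 expressed (77.3%). HMOX1, the haem oxygenase, stood at 149.8, 168 and 189.6 FPKM (169 ± 19.9), SLC2A1, the glucose transporter GLUT1, at 119, 124 and 127 FPKM (123 ± 3.84), and STC2, a secreted glycoprotein hormone, at 95.4 ± 8.15 FPKM. VEGFA, the main angiogenic factor, stood at 41.4, 42.7 and 36.3 FPKM (40.1 ± 3.36). The exons of VEGFA add up to far more bases than one transcript, and per longest transcript it reached 164 FPKM. BHLHE40 and CITED2, transcriptional feedback regulators, stood at 84.0 and 46.4 FPKM, and ADM, the vasodilator adrenomedullin, at 40.7 ± 2.62 FPKM. Near the bottom were LOX, the collagen crosslinking oxidase, at 0.217 ± 0.0252 FPKM, ANKRD37 at 0.22 ± 0.104 FPKM and NDUFA4L2, a mitochondrial protein raised in clear cell tumours, with 5 counts over the 3 libraries (0.0333 FPKM).

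In most families 1 gene held most of the summed level. Over all 54 families, the lowest library of the leading member lay above the highest library of the second in 49. The leader held at least 90% of the family's summed FPKM in 16 families and at least 50% in 46. The 3 families with no expressed member were the pyruvate dehydrogenase kinases, the VEGF receptors and the PDGF receptors. For the first this held over all exon bases only, since PDK3 and PDK2 stood at 5.30 and 1.54 FPKM per longest transcript.

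Among genes of glucose entry and its first steps, SLC2A1, HK1 and PFKP had the highest transcript level of their families. SLC2A1 held 87.5% ± 0.468 of the level of 12 facilitative glucose transporters, ahead of SLC2A8 at 5.98 ± 0.433 FPKM, SLC2A6 at 5.70 ± 0.596 FPKM and SLC2A3 at 5.04 ± 0.651 FPKM, while SLC2A4 and SLC2A14 had no counts. Among hexokinases, HK1 stood at 84.5, 89.7 and 78.2 FPKM (84.1 ± 5.74), HKDC1 at 19.2, 20.7 and 16.9 FPKM (18.9 ± 1.96) and the HIF target HK2 at 12.6, 12.5 and 8.79 FPKM (11.3 ± 2.16). HK1 took 73.6% ± 1.44 of that family, and HK3, the leukocyte form, was near absent. PFKP, the platelet form of phosphofructokinase, was measured at 184, 192 and 201 FPKM (192 ± 8.76) and exceeded PFKL, the liver form, at 18.1 ± 1.18 FPKM and PFKM, the muscle form, at 15.1 ± 0.441 FPKM. PFKFB3, which makes the activator of phosphofructokinase, stood at 34.2 ± 0.12 FPKM against 7.42 ± 0.312 FPKM for PFKFB4.

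Lower glycolysis genes also had clear leaders by transcript level. ALDOA was measured at 57.9 ± 4.22 FPKM with 42.3% of its exon bases shared with another gene on its strand. ENO1 held 98.7% ± 0.0149 of the enolases, with ENO2 at 21.6 ± 1.68 FPKM. PKM, the muscle and tumour pyruvate kinase, was measured at 796, 787 and 874 FPKM (819 ± 47.5) and PKLR, the liver and red cell form, had no counts. LDHA held 79.6% ± 0.364 of the lactate dehydrogenases, with LDHB at 89.8 ± 4.30 FPKM and 33.4% of its exon bases shared. SLC16A3, the lactate exporter MCT4, was measured at 40.9, 43.3 and 45.7 FPKM (43.3 ± 2.41) and SLC16A1, or MCT1, at 11.2, 9.56 and 7.0 FPKM (9.26 ± 2.12). The testis forms PGK2 and LDHC stood at no counts and at 1.25 FPKM.

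Genes at the entry to mitochondrial oxidation were low or present in their common form. The kinases PDK2, PDK3, PDK1 and PDK4, which inhibit pyruvate dehydrogenase, stood at 0.967, 0.58, 0.363 and 0.23 FPKM. Per longest transcript PDK3 stood at 5.30 FPKM and PDK2 at 1.54 FPKM, which reversed their order. COX4I1, the common cytochrome oxidase subunit, stood at 85.3 ± 7.67 FPKM and its HIF-responsive partner COX4I2 had no counts. NDUFA4 stood at 103 ± 3.91 FPKM and held all but a trace of its pair with NDUFA4L2. GLS2, a glutaminase, had no counts, and 77.1% of its exon bases are shared with a gene on the other strand.

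Lipid genes were broadly present, with 15 of 17 members (88.2%) expressed. PLIN2 and PLIN3 shared the perilipins at 164 ± 11.3 FPKM and 119 ± 9.49 FPKM, while PLIN1, PLIN4 and PLIN5 were near absent or at no counts. ACLY, which makes cytosolic acetyl-CoA, stood at 112, 112 and 98.9 FPKM (108 ± 7.52), and SCD, the stearoyl-CoA desaturase, at 22.8 ± 2.88 FPKM. FASN, the fatty acid synthase, stood at 8.89 ± 0.302 FPKM, and CPT1A, the gate to fatty acid oxidation, at 4.63 ± 0.59 FPKM. CD36, a fatty acid importer, had no counts, with a limit of 0.00488 FPKM. FABP5 held 94.4% ± 0.877 of the fatty acid binding proteins at 79.4 ± 1.62 FPKM, whereas FABP1, the proximal tubule and liver form, had no counts.

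Gluconeogenesis, a proximal tubule task, was close to absent at its defining steps. FBP1 stood at 0.01 FPKM, and PCK1 and G6PC1 had no counts. PCK2, the mitochondrial form of the PCK1 enzyme, was expressed at 11.1, 12.0 and 13.3 FPKM (12.1 ± 1.14). Of the urea cycle genes, ASS1 and ASL, which make and split argininosuccinate, stood at 5.26 ± 1.06 FPKM and 4.39 ± 0.311 FPKM, while OTC and ARG1 had no counts. MT2A and MT1E, metallothioneins that buffer zinc and copper, were high at 545, 617 and 574 FPKM (579 ± 36.2) and 259, 272 and 286 FPKM (272 ± 13.4). MT1G, MT1M and MT1A had no counts. Metallothionein genes are close copies of one another, so the split of reads between them is uncertain.

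Several transcription factors of the kidney were expressed. PAX8 (chr2:113215997-113278921, minus strand), the factor of renal and Müllerian epithelium that pathologists use for renal origin, was measured at 55.1, 52.96 and 53.3 FPKM (53.8 ± 1.13). The 3 libraries lay close together, and their mean exceeded 95.5% of protein-coding genes. LHX1, SALL1 and IRX3, factors of the embryonic kidney, stood at 4.11, 4.28 and 6.19 FPKM. PAX2, the partner of PAX8 in kidney development, was measured at 0.87, 0.86 and 0.97 FPKM (0.9 ± 0.0608), or 1.43 FPKM per longest transcript. HNF4A, which maintains the mature proximal tubule programme, had 6 counts over the 3 libraries. Of the 21 renal factors 7 (33.3%) were expressed, beside 43.4% of all coding genes. Near absent were 10, beside 39.1% of all coding genes, among them SIX2, EYA1, EMX2, FOXI1 and KLF15 with no counts.

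Mature proximal tubule genes were nearly all missing, 1 of 28 (3.57%) being expressed and 18 near absent. That 1 was ANPEP, a brush border aminopeptidase, at 89.7, 89.1 and 83.6 FPKM (87.5 ± 3.34). LRP2, the endocytic receptor megalin, had no counts, with a limit of 0.00329 FPKM, and its partner CUBN had 30 counts (0.04 FPKM). The transporters SLC5A1, SLC22A2, SLC22A6, SLC22A8 and SLC22A12 had no counts, and the phosphate transporter SLC34A1 stood at 0.00333 FPKM. Closest to the limit were SLC4A4, the bicarbonate cotransporter, at 1.01, 0.93 and 0.54 FPKM (0.827 ± 0.251), and MME, or CD10, at 0.64, 0.82 and 0.49 FPKM (0.65 ± 0.165). Per longest transcript these 2 stood at 1.01 FPKM and 1.14 FPKM. AQP1, the water channel of this segment, stood at 0.217 ± 0.124 FPKM.

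Genes that proximal tubule cells switch on after injury were present, 8 of 10 (80.0%). CD24, a surface sialoglycoprotein, was measured at 89.4, 79.7 and 67.4 FPKM (78.8 ± 11.01). VCAM1, an adhesion receptor of the failed repair state, stood at 24.4, 17.9 and 13.7 FPKM (18.7 ± 5.41). HAVCR1, the injury marker KIM-1, stood at 7.14, 6.46 and 4.87 FPKM (6.16 ± 1.17). All 3 were lowest in replicate 3, and VCAM1 the most uneven. SOX4, SOX9, SPP1, CLU and CDH6 stood between 4.06 and 9.73 FPKM, LCN2 at 0.483 ± 0.17 FPKM, and PROM1, the antigen CD133, had no counts.

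Other nephron segments gave almost nothing. None of 10 thick limb and distal tubule genes was expressed, UMOD, the main protein of urine, having 1 count in all and SLC12A1 and SLC12A3, the salt cotransporters, none. Of 12 collecting duct genes 1 was expressed by its mean, ATP6V0D2, a proton pump subunit, at 1.66, 1.02 and 0.47 FPKM (1.05 ± 0.596), a mean that was 0.745 FPKM without replicate 1. AQP2, the vasopressin-regulated water channel, had no counts. Of 6 podocyte genes, the slit diaphragm gene NPHS1 had no counts, while SYNPO, an actin-associated protein not confined to podocytes, stood at 38.3, 37.0 and 35.2 FPKM (36.8 ± 1.52) and PODXL, a sialomucin, at 5.63 ± 1.40 FPKM.

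Markers of endothelial cells, fibroblasts and leukocytes were checked against the epithelial label, and hepatocyte markers, which are epithelial themselves, against the kidney label. Endothelial genes were expressed in 0 of 8, with summed levels of 0.68 to 1.03 FPKM per library and no counts of CDH5 or EMCN. Fibroblast genes were expressed in 1 of 9, ACTA2 at 2.57 ± 0.146 FPKM, with sums of 3.23 to 3.72 FPKM and no counts of PDGFRA. Leukocyte genes were expressed in 1 of 10, with sums of 3.62 to 4.54 FPKM and no counts of PTPRC, the pan-leukocyte gene CD45, of the T cell genes CD3D and CD3E or of the B cell gene MS4A1. That 1 leukocyte gene was CSF1R, the receptor of CSF1, at 3.52, 3.70 and 4.20 FPKM (3.81 ± 0.352). Hepatocyte genes were expressed in 1 of 8, SERPINA1, the antitrypsin, at 148, 155 and 155 FPKM (153 ± 3.74), while ALB, TTR, APOA1, APOA2 and FGB had no counts. Apart from these 3 genes the lists held no expressed member. In bulk libraries a few cells of a type and little RNA per cell cannot be told apart.

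**Figure D3:**
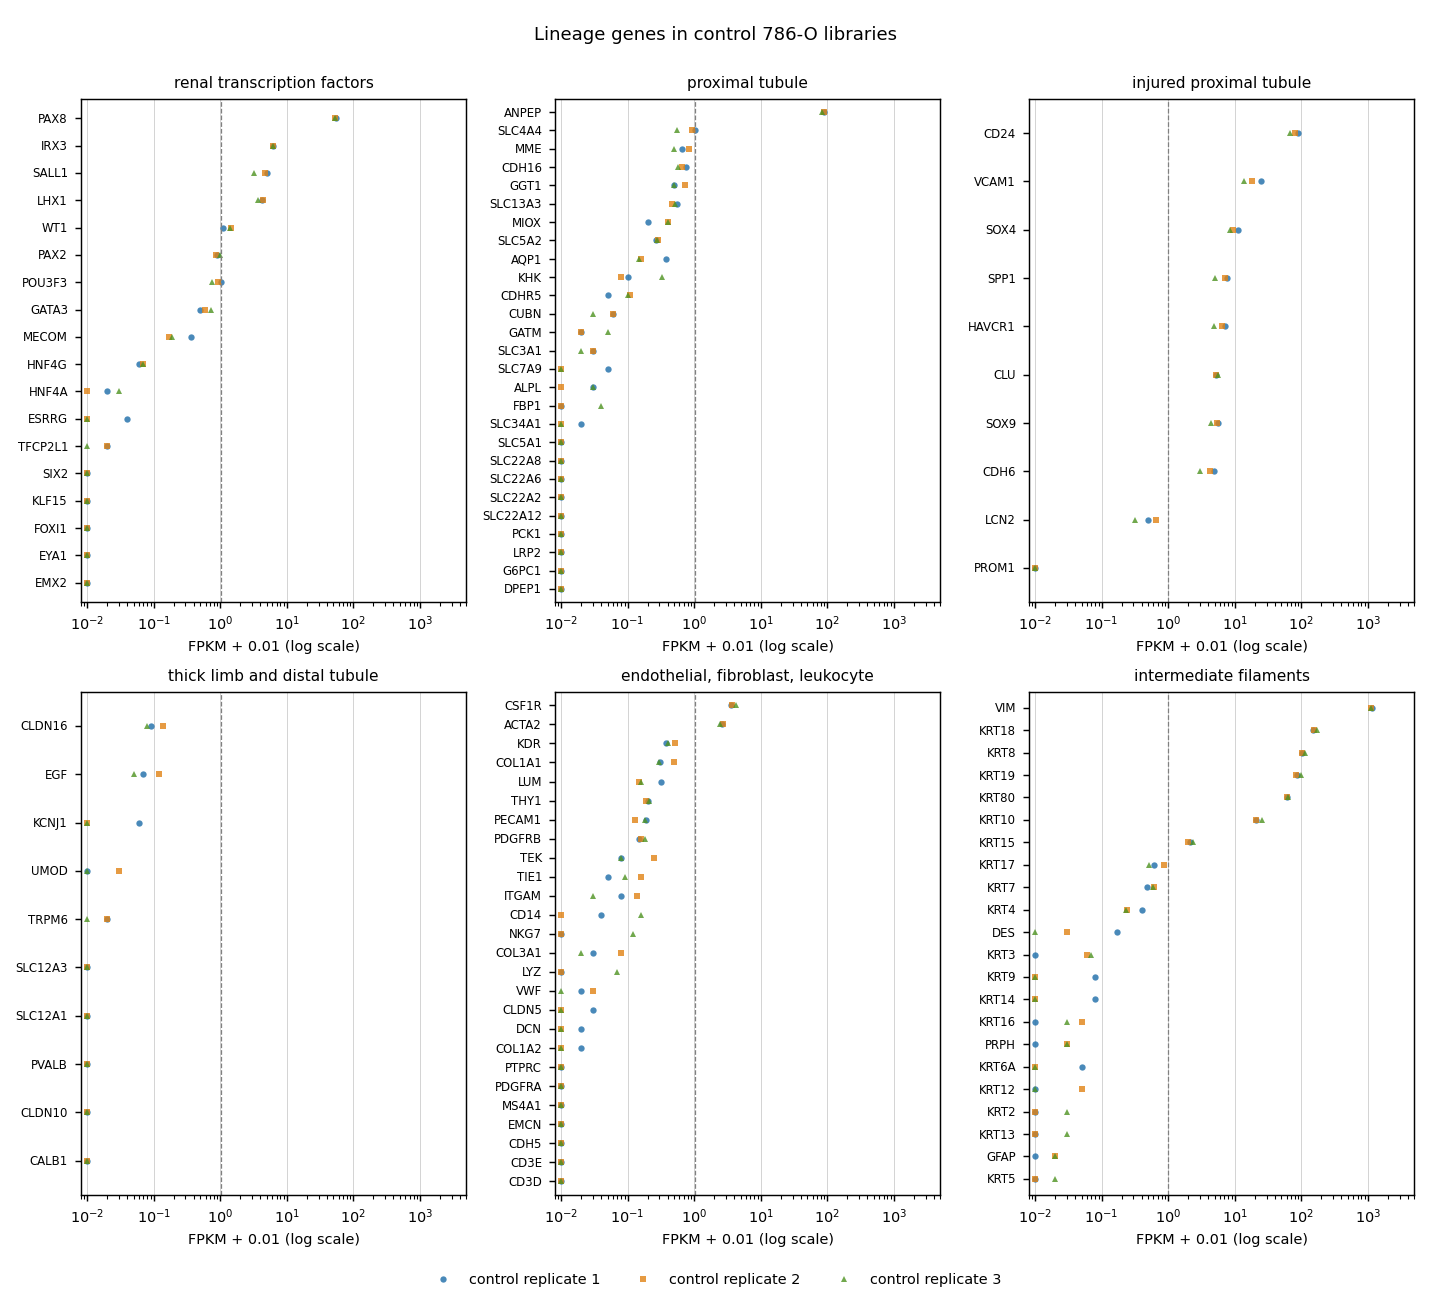
FPKM + 0.01 (log scale) of lineage genes in control replicates 1, 2 and 3, by list, with the dashed line at 1 FPKM. PAX8 at 53.8 FPKM, ANPEP at 87.5 FPKM and VIM at 1131 FPKM stand at the right of their panels, while thick limb and distal tubule genes all lie left of the line.

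HOX genes, which record position along the body axis, were expressed from all 4 clusters. HOXA gave 9 of 11 expressed members, led by HOXA9 at 15.3, 15.7 and 12.96 FPKM (14.7 ± 1.48) and HOXA11 at 11.1, 11.7 and 10.9 FPKM (11.2 ± 0.424). HOXB gave 8 of 10, led by HOXB7 at 27.7, 26.6 and 26.5 FPKM (26.9 ± 0.676). HOXC gave 2 of 9, HOXC10 at 4.84, 5.10 and 4.55 FPKM (4.83 ± 0.275) and HOXC4 at 0.94, 1.03 and 1.13 FPKM (1.03 ± 0.095), and the latter mean was 0.985 FPKM without replicate 3. HOXD gave 4 of 9, HOXD11 at 4.82 ± 0.344 FPKM, HOXD4 at 4.21 ± 0.297 FPKM, HOXD8 at 3.36 ± 0.587 FPKM and HOXD10 at 3.12 ± 0.338 FPKM, where HOXD11 and HOXD4 overlapped between libraries and 80.5% of HOXD4's exon bases are shared with a neighbour on its strand. The hindmost genes HOXB13 and HOXD13 had no counts and HOXA13 stood at 0.243 FPKM.

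Of 14 surface and diagnostic genes of clear cell carcinoma, 5 (35.7%) were expressed, and high and absent genes stood side by side. CD70, a ligand of the TNF family that clear cell tumours display, was measured at 123, 114 and 117 FPKM (118 ± 4.43). NNMT, which methylates nicotinamide, stood at 91.0, 98.4 and 112 FPKM (101 ± 10.9), and ANGPTL4, a lipase inhibitor, at 71.8, 79.4 and 86.5 FPKM (79.2 ± 7.36). PAX8 and EGLN3 were the other expressed members. CA9, MME, KRT7 and AMACR lay between 0.1 and 1 FPKM, and 64.8% of the exon bases of AMACR are shared on its strand. ENPP3 and GPNMB, tumour surface antigens, stood at 0.0233 and 0.03 FPKM, FOLH1 had no counts and KIT 1 count.

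Among 27 tumour suppressors and drivers, 16 (59.3%) were expressed. The mitochondrial SDHB, the transcription factor TFE3 and the NRF2 inhibitor KEAP1 led at 75.9, 38.7 and 30.6 FPKM. BAP1, a deubiquitinase lost in part of these tumours, stood at 24.3 ± 1.84 FPKM. The chromatin genes of the same chromosome arm, PBRM1 and SETD2, stood lower at 0.623 ± 0.126 FPKM and 0.523 ± 0.115 FPKM. NFE2L2, encoding NRF2, stood at 0.943 ± 0.273 FPKM but at 4.95 FPKM per longest transcript. PIK3CA stood at 0.0867 FPKM.

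CDKN2A and CDKN2B, the 9p21 inhibitors of CDK4 and CDK6, had no counts in any library, with limits of 0.0137 FPKM and 0.0133 FPKM. CDKN2A lies at chr9:21967752-21995301 in the deposited GRCh38 coordinates, and the region around it held few counts. Of 60 genes within 1 Mb on either side, 49 have a symbol and 11 of those had counts. Between MTAP and DMRTA1 lie 9 genes of the table, and together they held 1 count. MTAP, the methionine salvage gene that ends at chr9:21937651, was expressed at 2.22, 2.43 and 1.74 FPKM (2.13 ± 0.354), and DMRTA1, which begins at chr9:22446824, at 1.56, 1.43 and 1.27 FPKM (1.42 ± 0.145). On the far side of MTAP, FOCAD stood at 2.09 ± 0.65 FPKM, KLHL9 at 0.833 ± 0.095 FPKM and the host transcript MIR31HG at 0.513 ± 0.0153 FPKM. Of 16 interferon genes in the window 14 had no counts, IFNE had 2 and IFNB1 had 105. The pseudogenes IFNA20P and CLIC4P1 and the RNAs MIR31 and LINC01239 held 10, 16, 2 and 4 counts. Whether DNA is missing here cannot be read from RNA counts.

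Remaining cell cycle inhibitors were present. CDKN2C and CDKN2D, the INK4 genes on other chromosomes, stood at 15.6 ± 0.701 FPKM and 7.20 ± 0.613 FPKM. CDKN1A, the inhibitor p21, stood at 13.9, 11.8 and 12.9 FPKM (12.9 ± 1.04), CDKN1B at 2.89 ± 0.237 FPKM and CDKN1C at 1.13 ± 0.085 FPKM. Of the D cyclins, CCND1 held 87.3% ± 3.26, CCND3 stood at 18.7 ± 1.40 FPKM and CCND2 had no counts. HRAS led the RAS genes at 29.9 ± 4.01 FPKM, with NRAS at 13.5 ± 2.07 FPKM.

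Of the keratin and type III intermediate filament genes vimentin was highest, followed by keratins of simple epithelia. VIM, the mesenchymal intermediate filament, was measured at 1141, 1123 and 1129.9 FPKM (1131 ± 8.83), rank 20 among the coding genes counted here. KRT18, the type I keratin of simple epithelia, stood at 147, 154 and 175 FPKM (159 ± 14.5), its type II partner KRT8 at 101, 101 and 113 FPKM (105 ± 7.15) and KRT19 at 86.0, 83.8 and 97.8 FPKM (89.2 ± 7.55). These 3 keratins were highest in replicate 3. KRT80 stood at 61.9 ± 1.86 FPKM, KRT10, a keratin of stratified epidermis, at 22.4 ± 2.53 FPKM and KRT15, a basal keratin, at 2.15 ± 0.181 FPKM, while KRT7, a collecting duct and papillary tumour keratin, was at 0.553 ± 0.0723 FPKM, or 1.27 FPKM per longest transcript. The other basal keratins KRT5 and KRT14 and the squamous KRT13 and KRT6A were near absent. DES, PRPH and GFAP, the other type III filaments, were near absent. ACTB and ACTG1 took almost equal shares, at 1711, 1735 and 1893 FPKM (1779.9 ± 98.7) and 1587, 1586 and 1761 FPKM (1645 ± 101), and their libraries overlapped. Per longest transcript they stood further apart, at 4082 FPKM and 2954 FPKM. Among tropomyosins TPM4 led at 88.7 ± 10.95 FPKM, with TPM3 at 52.0 ± 4.46 FPKM and TPM1 at 49.9 ± 1.38 FPKM, and TUBB led the beta tubulins at 723 ± 42.2 FPKM, with TUBB4B at 501 ± 35.4 FPKM. LMNA, a nuclear lamin, exceeded LMNB2 and LMNB1, at 183, 113 and 28.8 FPKM.

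CDH2, CDH13 and CDH6 led the cadherins. CDH1, or E-cadherin, the main cadherin of epithelia, had no counts in any library, with a limit of 0.00873 FPKM. CDH2, or N-cadherin, which the proximal tubule also carries, was measured at 19.8, 20.1 and 13.02 FPKM (17.7 ± 4.02). CDH13, a cadherin without a cytoplasmic tail, stood at 6.38, 4.90 and 3.96 FPKM (5.08 ± 1.22) and CDH6, the cadherin of the developing tubule, at 4.95, 4.24 and 2.98 FPKM (4.06 ± 0.998). CDH2 took 57.6% ± 2.75 of the level of 22 cadherins, 5 of which were expressed and 10 of which had no counts. EPCAM, the pan-epithelial adhesion protein, was measured at 0.3, 0.25 and 0.28 FPKM (0.277 ± 0.0252) from 38 counts. Thus of the usual epithelial markers KRT18 and KRT8 were high and CDH1 and EPCAM were under 1 FPKM.

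Junction components were partly there. Of 10 tight junction genes 3 were expressed, PARD3, a polarity scaffold, at 7.74 ± 1.73 FPKM, F11R, the adhesion molecule JAM-A, at 4.56 ± 0.393 FPKM with 36.6% of its exon bases shared, and TJP1, or ZO-1, at 1.92, 1.43 and 0.81 FPKM (1.39 ± 0.556). OCLN, the occludin, had 2 counts in all. CLDN1 stood at 40.8, 34.6 and 26.5 FPKM (34.0 ± 7.15) and took 80.1% ± 0.924 of 20 claudins, with CLDN12 at 3.50 ± 0.896 FPKM and CLDN15 at 2.38 ± 0.131 FPKM. The kidney claudins CLDN10 and CLDN8 had no counts and CLDN2, the proximal tubule pore, stood at 0.353 ± 0.119 FPKM. Of 16 desmosome and adherens plaque genes 5 were expressed, the catenins CTNNA1 and CTNNB1 at 76.2 ± 7.85 FPKM and 38.0 ± 2.88 FPKM, PKP3 at 7.37 ± 0.417 FPKM, DSG2 at 3.10 ± 0.897 FPKM and PKP4 at 1.98 ± 0.568 FPKM. DSP and JUP, the plaque proteins that anchor keratin, were near absent at 0.00667 and 0.04 FPKM.

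Of 14 regulators of the epithelial-mesenchymal transition 2 were expressed. SNAI2, or Slug, was measured at 17.2, 15.8 and 13.5 FPKM (15.5 ± 1.86) and SNAI1, or Snail, at 6.99, 6.16 and 7.22 FPKM (6.79 ± 0.558), both repressors of CDH1. ZEB1 and ZEB2, repressors of another family, stood at 0.247 ± 0.0306 FPKM and 0.197 ± 0.0416 FPKM, and TWIST1 and TWIST2 had no counts. The epithelial keepers ESRP1, GRHL2 and OVOL2 had no counts, and ESRP2, GRHL1, GRHL3 and OVOL1 were near absent.

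Of 18 integrin alpha subunits 5 (27.8%) were expressed, and of 8 beta subunits 4. ITGA3, which pairs with ITGB1 to bind laminin 332, was measured at 224, 216 and 226 FPKM (222 ± 5.27). ITGA5, of the fibronectin receptor, stood at 67.7, 66.9 and 67.8 FPKM (67.5 ± 0.501). Both lay far above the other 16 alpha subunits, among which ITGAE came next at 5.05 ± 0.309 FPKM. Other subunits that can bind laminin were lower, ITGA6 at 1.25 ± 0.378 FPKM, ITGA2 at 0.85 FPKM, ITGA7 at 0.11 FPKM and ITGA1 at 0.0267 FPKM, and ITGA8, ITGA9 and ITGAL had no counts. Among beta subunits ITGB5, of a vitronectin receptor, led with 52.1, 51.3 and 56.5 FPKM (53.3 ± 2.79) and held 60.1% ± 6.24 of the family's level. The alpha subunit ITGAV of that receptor stood far lower, at 1.67 FPKM. ITGB1, the common partner, was measured at 21.5, 19.1 and 10.1 FPKM (16.9 ± 6.01) and was 2.13 times as high in its highest as in its lowest library, replicate 3. Its processed pseudogene ITGB1P1, listed at 19.2 FPKM, had a similar ratio of 2.17. Per longest transcript ITGB1 stood at 64.9 FPKM, and ITGB5 still led the beta subunits. ITGB3 stood at 15.0 ± 1.21 FPKM, with 51.6% of its exon bases shared with another gene on its strand, and ITGB4, the hemidesmosome subunit, at 0.0367 FPKM.

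Matrix genes were abundant. LAMB3, the beta chain of laminin 332, was measured at 184, 182 and 182 FPKM (183 ± 1.35). Its alpha chain, LAMA3, stood lower at 2.65, 2.62 and 2.09 FPKM (2.45 ± 0.315), and LAMA5 led the alpha chains at 7.25 ± 0.332 FPKM. LAMB2, LAMC1 and LAMB1 stood at 18.3, 33.7 and 7.87 FPKM. TGFBI, a secreted integrin ligand, stood at 386, 387 and 394 FPKM (389 ± 4.62), FN1, the fibronectin, at 344, 314 and 220.3 FPKM (293 ± 64.4) and SPARC, a collagen-binding glycoprotein, at 261, 258 and 263 FPKM (261 ± 2.62). FN1 was the one of these 3 with a clearly lower value in replicate 3. In all, 14 of 21 matrix glycoprotein and crosslinking genes were expressed, and POSTN and THBS2 had no counts.

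Of 24 collagen genes 9 (37.5%) were expressed. COL6A2, COL6A1 and COL6A3, chains of the microfibrillar type VI, led at 136 ± 5.20 FPKM, 103 ± 4.07 FPKM and 74.3 ± 13.7 FPKM. COL7A1, of anchoring fibrils, stood at 52.0 ± 0.735 FPKM and the basement membrane chains COL4A2 and COL4A1 at 13.4 ± 0.522 FPKM and 5.68 ± 0.63 FPKM. The other type IV chains were lower, COL4A5 at 0.563 FPKM or 1.04 FPKM per longest transcript, COL4A6 at 0.283 FPKM, COL4A3 at 0.00333 FPKM and COL4A4 with no counts. Of type VIII, COL8A1 stood at 3.39 ± 0.631 FPKM and COL8A2 at 0.0267 FPKM. The fibrillar collagens of fibroblasts, COL1A1, COL1A2 and COL3A1, stood at 0.357, 0.00333 and 0.0333 FPKM.

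Matrix remodelling genes were expressed in 12 of 16. TIMP1 and MMP14, an inhibitor and a membrane-bound activator of metalloproteinases, stood at 187, 194 and 201 FPKM (194 ± 7.43) and 183, 203 and 191 FPKM (192 ± 9.73). The collagenase MMP1 stood at 95.3, 93.4 and 88.9 FPKM (92.5 ± 3.30), the urokinase PLAU at 81.8, 78.9 and 85.2 FPKM (82.0 ± 3.17) and its receptor PLAUR at 48.2, 50.1 and 51.3 FPKM (49.9 ± 1.57). MMP13 was uneven, at 6.30, 9.20 and 3.25 FPKM (6.25 ± 2.98). TIMP3 was near absent at 0.0167 FPKM. Among other adhesion receptors SDC4, a heparan sulphate proteoglycan, was measured at 276, 267 and 278 FPKM (274 ± 5.54), the hyaluronan receptor CD44 at 149, 160.0 and 142 FPKM (151 ± 8.86) and SDC1 at 106, 112 and 114 FPKM (111 ± 4.61), and 15 of 19 were expressed. ICAM3 had no counts, and 71.2% of its exon bases are shared with the other strand.

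**Figure D4:**
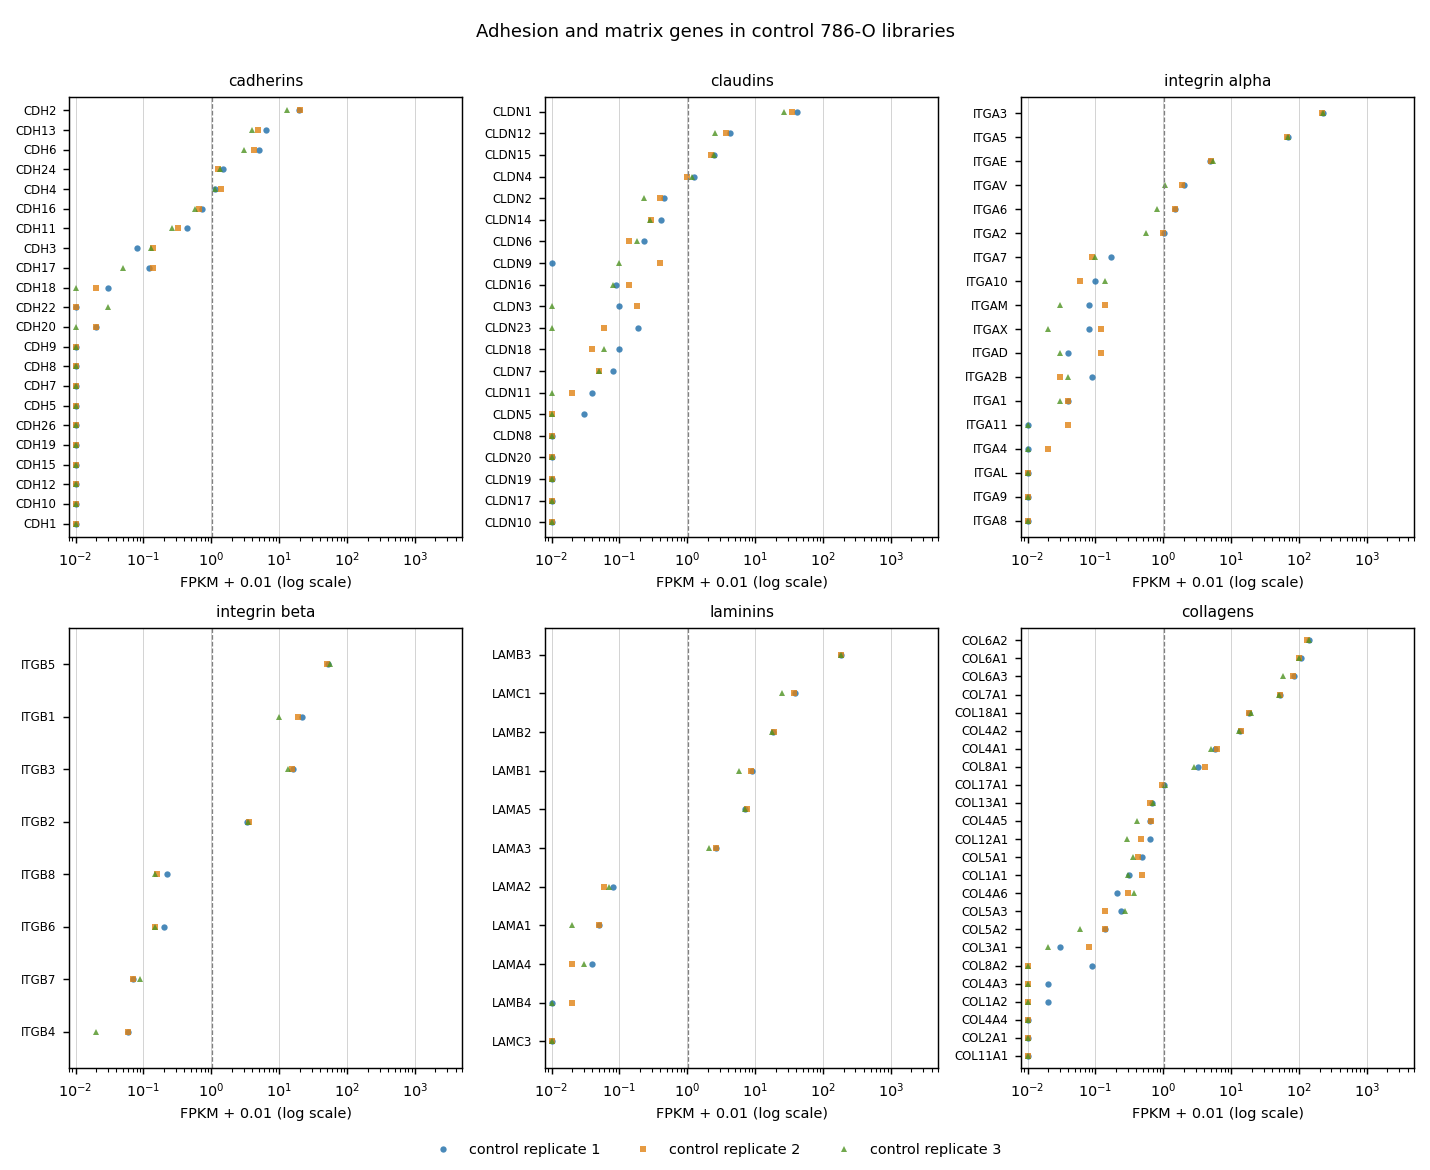
FPKM + 0.01 (log scale) of cadherins, claudins, integrins, laminins and collagens in control replicates 1, 2 and 3, with the dashed line at 1 FPKM. 1 or 2 genes stand far to the right in most panels, CDH1 lies at 0 at the bottom of its panel, and ITGB1 is lower in replicate 3 (10.1 FPKM) than in replicates 1 and 2.

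Several families of growth factor receptors also had clear leaders, but not all. AXL, the receptor of GAS6, was measured at 137, 146 and 144 FPKM (142 ± 4.63) and held 96.9% ± 0.261 of the TAM family, with TYRO3 at 4.48 ± 0.359 FPKM. MET, the receptor of hepatocyte growth factor, stood at 13.1, 12.2 and 7.14 FPKM (10.8 ± 3.24). EGFR and ERBB2 were measured at 8.76, 7.84 and 5.24 FPKM (7.28 ± 1.83) and 4.88, 5.36 and 5.36 FPKM (5.20 ± 0.277), and their libraries overlapped, EGFR being lower in replicate 3. FGFR1 stood at 9.43 ± 0.191 FPKM, NOTCH2 at 14.7 ± 3.66 FPKM, NOTCH1 at 5.46 ± 0.239 FPKM and IGF1R at 1.03 ± 0.17 FPKM, with a mean of 0.93 FPKM without replicate 1. INSR was near absent at 0.01 FPKM. KDR, the VEGF receptor, stood at 0.42 ± 0.0721 FPKM, and FLT1 and FLT4 had no counts. The cells thus held little transcript of KDR, FLT1 or FLT4, while the ligand VEGFC stood at 26.6, 25.5 and 21.3 FPKM (24.5 ± 2.80). Other genes whose products may bind VEGFA or VEGFC were not examined. TGFB1 led its family at 36.9 ± 1.13 FPKM, with TGFB2 at 2.56 ± 0.542 FPKM.

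Carbonic anhydrases were led by CA2, the cytosolic form, at 6.27, 4.66 and 3.45 FPKM (4.79 ± 1.41) and CA12, a membrane form, at 3.73, 2.91 and 2.88 FPKM (3.17 ± 0.482). Their libraries overlapped, so they could not be ordered. CA9 came next, and 6 of 15 members had no counts.

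Antigen presentation genes differed by class. Of 18 MHC class I genes 17 (94.4%) were expressed. The chaperone CALR was measured at 659, 692 and 746 FPKM (699 ± 44.0) and the light chain B2M at 633, 625 and 679 FPKM (645 ± 28.97). The heavy chain genes HLA-C and HLA-B stood at 415, 413 and 439 FPKM (422 ± 14.4) and 200.3, 201 and 215 FPKM (205 ± 7.96). They are polymorphic and close copies, so the split of reads between them is uncertain. TAP1 and TAP2, which pump peptides into the endoplasmic reticulum, stood at 32.5 ± 1.78 FPKM and 2.703 ± 0.0451 FPKM, with 32.3% of the TAP2 exon bases shared, the immunoproteasome subunits PSMB8, PSMB9 and PSMB10 at 44.6, 19.6 and 21 FPKM, and NLRC5, the class I transactivator, at 1.43 ± 0.0208 FPKM. HLA-G was near absent at 0.03 FPKM. None of 11 class II genes was expressed. CIITA, their transactivator, had 53 counts (0.04 FPKM), HLA-DRA stood at 0.03 FPKM, and the highest were HLA-DMA at 0.84, 0.22 and 0.41 FPKM (0.49 ± 0.318) and CD74, the invariant chain, at 0.21, 0.27 and 0.47 FPKM (0.317 ± 0.136). Per longest transcript HLA-DMA stood at 1.10 FPKM.

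Of 30 ligands for T and NK cells 17 (56.7%) were expressed. After CD70, PVR, a ligand of TIGIT and DNAM-1, and TNFSF9, the ligand of 4-1BB, were highest at 36.9, 37.4 and 36.5 FPKM (36.9 ± 0.415) and 34.1, 36.1 and 36.7 FPKM (35.6 ± 1.35). CD274, or PD-L1, was measured at 3.71, 3.45 and 2.31 FPKM (3.16 ± 0.745) and PDCD1LG2, or PD-L2, at 4.76, 4.61 and 3.44 FPKM (4.27 ± 0.723). Both were lower in replicate 3. CD276, or B7-H3, stood at 18.6 ± 1.40 FPKM and CD47, the signal that restrains phagocytes, at 15.5 ± 2.08 FPKM. The NKG2D ligands MICA and ULBP2 stood at 17.3 ± 1.04 FPKM and 16.9 ± 0.673 FPKM. The costimulatory ligands CD80 and CD86 had no counts, and HHLA2 and IDO1 stood at 0.00667 and 0.03 FPKM. FAS, the death receptor, stood at 0.197 ± 0.0666 FPKM, but at 2.30 FPKM per longest transcript.

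Of 29 genes of nucleic acid sensing 9 (31.0%) were expressed, beside 43.4% of all coding genes, and another 7 lay between 0.1 and 1 FPKM. CGAS, the sensor of cytosolic DNA, was measured at 7.21, 7.20 and 6.44 FPKM (6.95 ± 0.442). STING1, its downstream adaptor, stood at 4.02, 4.39 and 4.36 FPKM (4.26 ± 0.206), and MAVS, the adaptor of RNA sensors, at 6.56, 7.34 and 6.09 FPKM (6.66 ± 0.631). IRF3, the factor that both reach, was the highest of the list at 18.7, 19.8 and 22.1 FPKM (20.2 ± 1.71). The kinase TBK1, which links these adaptors to IRF3, stood at 0.193 ± 0.0651 FPKM. The RNA sensors were low, IFIH1, or MDA5, at 0.87, 0.76 and 0.46 FPKM (0.697 ± 0.212) or 1.02 FPKM per longest transcript, RIGI with 3 counts in all and TLR3 with 9. EIF2AK2, or PKR, stood at 1.28 ± 0.384 FPKM and ADAR, which edits double-stranded RNA, at 14.1 ± 2.65 FPKM. TLR7, TLR8, TLR9, TLR10 and ZBP1 had no counts, though TLR9 shares 86.3% of its exon bases on its strand. TREX1, the exonuclease that clears cytosolic DNA, was listed with no counts, but all its exon bases are shared with another gene on its strand, so this 0 does not show its level.

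Coding genes that share under 10% of their exon bases with the other strand were taken first. Among them the share with no counts did not rise evenly with exon bases shared on the same strand. Of those that share 90 to 100% of their exon bases on the same strand, 48.2% had no counts, and of those that share 50 to 90% and 10 to 50%, 31.2% and 18.5%, against 25.9% of those sharing under 10%. For sharing with the other strand, the genes taken were those that share under 10% on the same strand. The values were 65.2% of 23 genes at 90 to 100%, 23.4% at 50 to 90% and 11.9% at 10 to 50%. Of the 820 members, 10 share at least 50% of their exon bases with another gene on the same strand.

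The receptor genes for interferon gamma were expressed and those for type I interferon stood under 1 FPKM. IFNGR2 and IFNGR1 stood at 22.2 ± 0.689 FPKM and 6.75 ± 1.76 FPKM, JAK1 at 5.55 ± 1.93 FPKM, and IRF1 at 8.89 ± 0.622 FPKM. IFNAR1 stood at 0.53 ± 0.132 FPKM and IFNAR2 at 0.627 ± 0.0379 FPKM, or 1.22 FPKM and 2.03 FPKM per longest transcript, and 44.2% of the IFNAR2 exon bases are shared on its strand. Of the interferons, IFNB1 was measured at 2.77, 1.57 and 2.30 FPKM (2.21 ± 0.605) and IFNL1 at 1.86, 1.55 and 1.98 FPKM (1.80 ± 0.222), each with counts in all 3 libraries. IFNA1, IFNA2, IFNG, IFNK, IFNL2 and IFNL3 had no counts.

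Of 24 interferon-stimulated genes 17 (70.8%) were expressed, over a wide range. ISG15, a ubiquitin-like modifier, was measured at 157, 175 and 178 FPKM (169.8 ± 11.4) and IFI6, a mitochondrial survival protein, at 143, 163 and 156 FPKM (154 ± 10.1). BST2, or tetherin, stood at 81.8, 96.0 and 97.1 FPKM (91.6 ± 8.53), and OASL at 43.2, 43.5 and 43.4 FPKM (43.4 ± 0.169). IFIT1, IFIT3 and RSAD2, antiviral effectors, stood at 11.1 ± 2.38 FPKM, 10.02 ± 2.84 FPKM and 8.59 ± 2.12 FPKM. MX1, a GTPase of the same response, was measured at 0.15, 0.22 and 0.18 FPKM (0.183 ± 0.0351), or 0.943 FPKM per longest transcript, and XAF1 had 1 count. High and near absent members thus stood together in this list.

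Cytokines were among the highest genes of the cells, with 19 of 32 (59.4%) expressed. CXCL8, the neutrophil chemokine IL-8, was measured at 715, 613 and 579 FPKM (636 ± 70.6), rank 48 among the coding genes counted here. CSF2, or GM-CSF, stood at 395, 379 and 409.6 FPKM (394 ± 15.6), CXCL1 at 317, 323 and 324 FPKM (322 ± 3.83) and IL6 at 206, 197 and 198 FPKM (199.98 ± 4.79). Low were CXCL9, CXCL10 and CXCL11, T cell attractants of the interferon response, with no counts, at 0.197 FPKM and at 0.02 FPKM. IL32, CCL5, LIF and CSF1 stood at 138, 117, 65.1 and 61.2 FPKM, and IL1A, IL33 and CXCL12 were near absent. Of 19 cytokine receptors 10 were expressed, TNFRSF1A leading at 50.6, 50.1 and 55.0 FPKM (51.9 ± 2.71), then ACKR3, a scavenger of CXCL12, at 18.2 ± 0.58 FPKM and IL4R at 16.0 ± 0.497 FPKM. Of 13 complement genes 4 were expressed, CD59, C3, CD55 and CD46, at 24.9, 7.46, 2.92 and 2.05 FPKM.

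**Figure D5:**
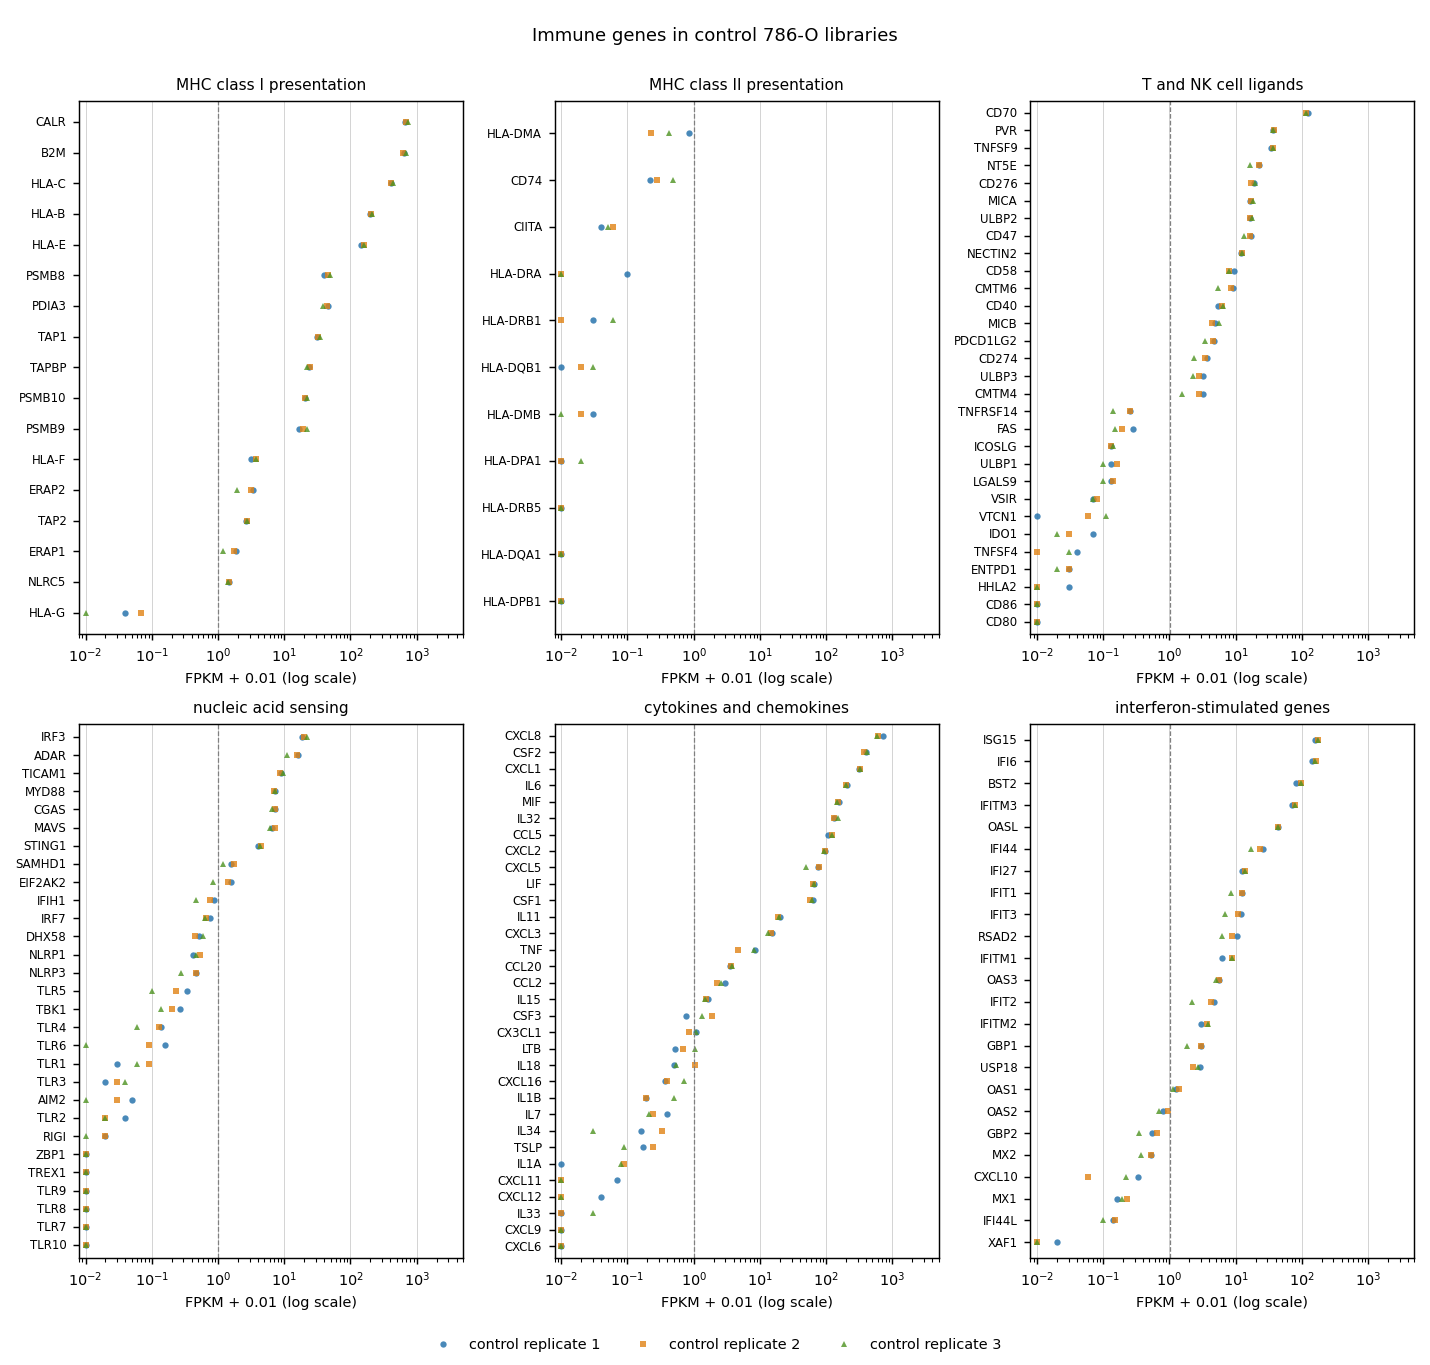
FPKM + 0.01 (log scale) of immune genes in control replicates 1, 2 and 3, by list, with the dashed line at 1 FPKM. All plotted MHC class I genes but HLA-G lie right of the line and all plotted class II genes left of it, and CXCL8, CSF2 and CXCL1 stand at 636, 394 and 322 FPKM.

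Reproducibility differed between genes. Among the 10 named genes with at least 10 FPKM and the largest ratio between libraries were RNA5-8SN3, at 96.7, 8.23 and 12.0 FPKM (39.0 ± 50.05), and RNA5-8SN1, at 21.7, 29.3 and 141 FPKM (63.9 ± 66.5), which are copies of the 5.8S ribosomal RNA gene high in different libraries. Such copies are near identical, so the split of reads between them is uncertain. ITGB1P1, ITGB1, WDR43, MYOF, CAPZA1 and DHX9 followed, each lowest in replicate 3, with ratios from 1.98 to 2.17. RPL37AP1, a ribosomal protein pseudogene, was lowest in replicate 1 with a ratio of 2.01. WDR43 helps to build ribosomes, MYOF is a membrane repair ferlin, CAPZA1 caps actin filaments and DHX9 is an RNA helicase.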

How the data were processed

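Polyadenylated RNA, extracted with TRIzol and selected on oligo(dT) beads, was made into libraries with a directional kit and sequenced on a NovaSeq instrument, per the labels' protocols. Per the submitters' processing notes, reads were handled on GRCh38 with STAR 2.7.9a and featureCounts 2.0.1, and FastQC 0.11.9 and Trim Galore 0.6.6 are also named. Not given in the sources used here is the gene annotation, or any use of strand in counting. For each gene the authors deposited raw counts and FPKM values of each library, per the file headers. Each FPKM equalled the count times a constant over summed exon bases and library total to within 0.005, so genes with many isoforms read low.

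Only the 3 control libraries were used, and 12 per-sample columns of the silenced cells were not. Levels were summarised as mean and SD in Python 3.11.15 with pandas 2.3.3 and numpy 2.4.6. No hypothesis test was run apart from the chi-square comparison of libraries (scipy 1.17.1), and TMM factors came from edgeR 4.0.16 in R 4.3.3. Coding genes are those that RefSeq gives as protein-coding, matched by symbol, which left out MT-CO2 and MT-CO3. Shared exon bases and longest transcripts came from GENCODE 29, and 1 list symbol was matched by gene ID. A count of 0 was given a limit of 3 counts over the libraries, which covers counting error only. With 18042542 to 20224374 counts per library, the depth is similar in all 3.

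The members and lists were chosen with earlier results of these data known. The naming rule took preset genes, the 3 highest and up to 8 near absent members of each list and family, the 20 highest genes, the 10 genes of at least 10 FPKM with the largest ratio between libraries, and genes within 1 Mb of CDKN2A. Other genes named from the lists, such as those that complete a pathway, were added after their values were seen. Some genes that the rule takes are not reported here or plotted, but stay in the counts over lists and families. On simulated libraries of 19149 genes, 200 of 200 genes set to a known class and 99.6% of all genes were classed correctly. These draws held counting error only, and the set levels lay away from 1 FPKM. They check the code and cannot show how reliably real libraries, which differ by more than counting error, are classed. Alternatives were TPM, TMM scaling, the median, other limits and leaving out each library. Levels per longest transcript were added after seeing the data.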

Additional observations from a re-analysis of the deposited data

How the results depend on the processing

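Counts of expressed genes depended on the limit. With at least 10 counts over the libraries in place of 1 FPKM, 16100 genes and 562 list members were expressed, against 9345 and 373. Other limits, scales and the median gave 7534 to 12721 genes and 332 to 453 members. Leaving out 1 library at a time gave 9267 to 9492 genes, 8232 to 8450 protein-coding genes, 372 to 375 members, and the same leader in 53 to 54 of 54 families, the exception being EGLN3 (1.06 FPKM) over EGLN1 (1.02 FPKM) without replicate 2. Per longest transcript 41 members moved over 1 FPKM and 1 under it, 52 of 54 leaders were kept, and 105 of 257 named genes changed by over 1.5 times. In TPM, 238 of these 257 did, since all levels rescale, with a median ratio of 3.27. A limit of 1 TPM is thus lower here than 1 FPKM, and 10299 protein-coding genes reached it, against 8320. Of the 257 named genes, 19 crossed 1 on this scale. Among them were PAX2 (2.94 TPM), CA9 (2.73 TPM), SLC4A4 (2.72 TPM), EGLN2 (2.40 TPM), MME (2.13 TPM), KDR (1.38 TPM) and PDK1 (1.19 TPM). Some calls under 1 FPKM thus depend on the scale. No paired analysis was possible because 1 group alone is described.

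Levels resting on a few counts carry a large counting error, levels between genes depend on the exon bases counted, and nothing here measures protein, DNA or cell number.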
